A study of Mus musculus with 8 samples.

Results

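The mitochondrial protein import machinery was examined as a set of nuclear genes whose products carry proteins into mitochondria. Its members were the probes, other than control spots, that the array assigns to a mouse RefSeq transcript of a *Tomm*, *Timm* or *Mtx* gene (the name followed by a number), *Samm50*, *Pam16*, *Chchd4* or *Gfer*. This rule found 50 probes of 33 genes among 56605 probes, of which 32994 could be given the name of 1 of 22911 genes. Of the 33 genes, 32 encode proteins. They were grouped by name into 14 outer membrane genes (*Tomm*, *Samm50* and *Mtx*), 16 inner membrane genes (*Timm* and *Pam16*) and 2 of the disulfide relay, although not every product sits in the membrane of its group. The other, *Tomm6os*, is a noncoding RNA and was kept apart.

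RNA was taken from a quadriceps muscle of 3 Grsf1cKO and 3 wildtype (WT) male mice, all 17 months old, to compare aged muscle with and without *Grsf1*. The labels name the vastus intermedius and the paper the rectus femoris. Cy3-labeled RNA was hybridized to 8 Agilent 1-color arrays, since Grsf1cKO 1 and WT 1 each had a repeat array. Grsf1cKO mice descend from the Grsf1tm1a allele, from which a FLPo cross had removed the LacZ and Neo cassettes, so that exons IV and V were flanked by LoxP sites, and they carry Myf5Cre. This Cre acts in cells of the myogenic lineage, so that vessels, nerve, fat and immune cells of the muscle may keep *Grsf1*. Whether the WT mice carried a floxed allele, Cre or FLPo is not stated in the sources used here.

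Nearly all mitochondrial proteins are made in the cytosol and enter through the TOM complex of the outer membrane, from which the SAM complex receives barrel-shaped proteins for insertion. In the inner membrane, the TIM complex built on Timm23 takes proteins with a cleavable presequence, with an import motor on its matrix side, while the complex built on Timm22 inserts carrier proteins that small Timm chaperones bring across the intermembrane space. Chchd4 and Gfer trap small cysteine-rich proteins in that space by forming disulfide bonds, and skeletal muscle, rich in mitochondria, relies on all of these routes.

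The probe of *Grsf1*, the targeted gene, separated the genotypes. In Grsf1cKO 1, 2 and 3 it gave log2 signals of 12.16, 12.03 and 12.09, while WT 1, 2 and 3 gave 14.31, 14.26 and 14.28. *Grsf1* fell by 2.19 on the log2 scale (SE 0.0815, limma adjusted p = 0.00275), so that the WT level was 4.57-fold the Grsf1cKO level, and it was lower in 3 of 3 Grsf1cKO mice. Where this probe lies relative to exons IV and V was not determined here. The adjusted p ranged from 0.0239 to 0.0579 when 1 mouse was left out, and was 0.053 without Grsf1cKO 2, 0.0526 without WT 1 and 0.0579 without WT 3.

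One array stood apart. On the repeat array of Grsf1cKO 1, 88.9% of spots were well above background, against 66.3% to 73.1% on the other 7 arrays, and the 25th percentile of its signal was 55.5 against 9.68 to 15.7. Its signals were averaged with those of the first array of the same mouse, and values from the first arrays alone are given for *Grsf1* and, after the accounts of single genes, for the import genes. With first arrays only, *Grsf1* was at -2.19 (limma adjusted p = 0.00282).

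Import genes differed little between the genotypes. Testing was limited to probes that 3 or more of the 6 mice had well above background. Of the 50 import probes 46 passed, 1 of them that of *Tomm6os*. They covered 30 of the 32 protein-coding genes, each above background in 6 of 6 mice. *Tomm20l*, a relative of *Tomm20*, was above background in 0 mice, and *Timm8a2*, a relative of *Timm8a1*, in 2 mice, and neither was tested. For a gene with several probes the brightest stands for the gene. A call required in limma a change over 1.5-fold, a false discovery rate under 0.2 and, before adjustment, p under 0.01. By these criteria 0 of the 46 import probes were called, against 3 of all 38888 tested probes (0.00771%). The *z*-test named in the methods, with the same criteria, called 0 import probes too, and 322 of all probes.

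At an unadjusted limma p under 0.05, 0 of the 30 import genes were higher and 0 lower in Grsf1cKO, where 1.19% of 17030 tested genes were higher and 2.28% lower. These shares of all genes depended on the processing. With the slide of each array as a block they were 0.851% and 0.74%. With each array scaled to its 75th percentile they were 1.82% and 0.763%, and both settings again gave 0 import genes. The same count by *z*-test was 6 genes higher and 1 lower, where 4.54% of all genes were higher and 5.49% lower by that test. The log2 fold changes differed slightly in that run too, with *Grsf1* at -2.17 and a median of -0.01 for the import genes. Its counts therefore do not differ from those of limma by the test alone. In limma, the log2 fold changes of the 30 genes, Grsf1cKO minus WT, ran from -0.21 for *Tomm40l* to 0.12 for *Timm22*. At 2 decimals, 24 of them were within 0.1 of 0. Their median was -0.03, against -0.02 over all named genes tested, with 11 genes above 0 and 19 below. The medians were -0.03 for 13 outer membrane genes and -0.04 for 15 inner membrane genes. Adjusted p-values of the 30 genes lay between 0.994 and 0.998.

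Changes over 1.5-fold lay outside the intervals of most of these genes, while smaller changes remained possible. The 95% confidence interval of the fold change lay within 1.5-fold in either direction for 29 of 30 genes, a share of 96.7%. Over all 17030 tested genes the share was 70.8%, and over the 15840 genes above background in 6 of 6 mice it was 75.6%. *Gfer* was the exception, with an interval from -0.49 to 0.61. Over the other 29 genes the bounds reached from -0.53 to 0.34, that is, changes of -30.7% and 26.6% relative to WT. A change of a few percent in any of these mRNAs was not detectable with 3 mice of each genotype.

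**Figure D1:**
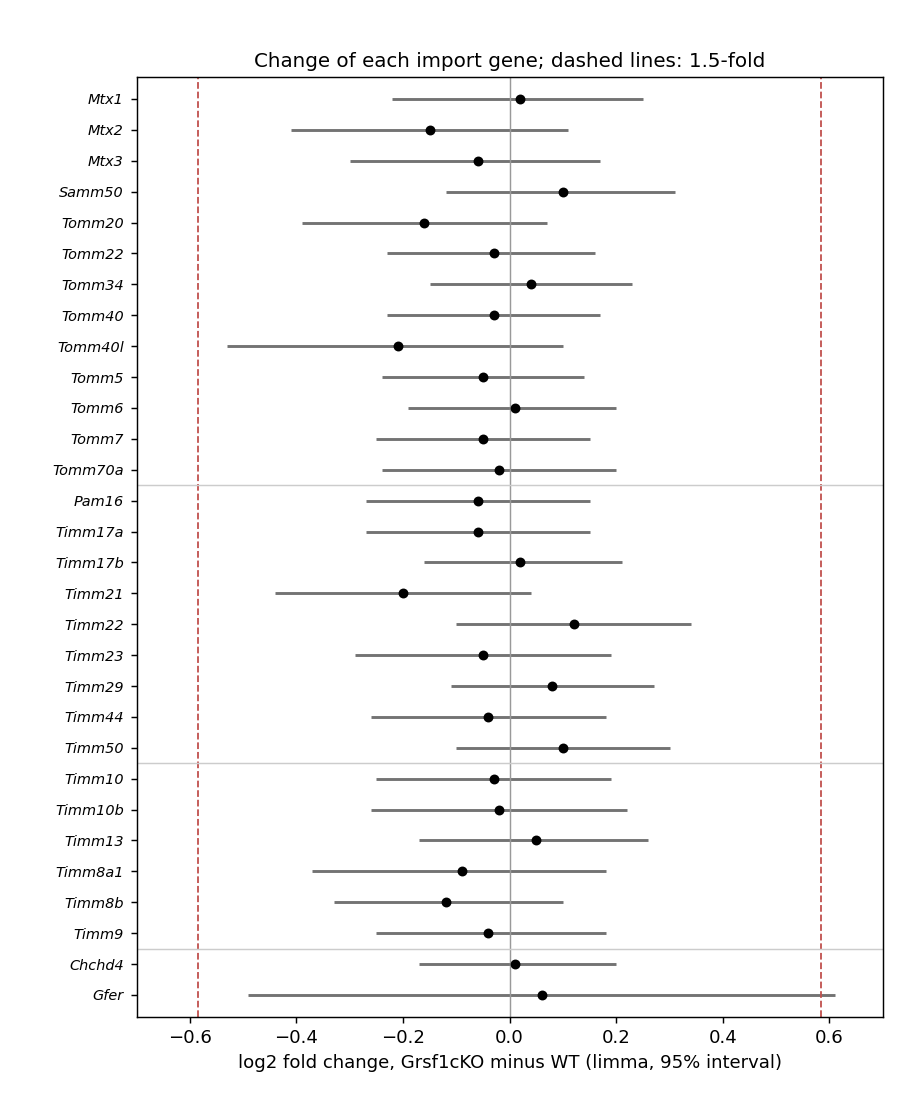
Log2 fold change of each of the 30 tested import genes, Grsf1cKO minus WT (n = 3 mice each), with its limma 95% confidence interval. Gray lines separate, from the top, outer membrane genes, inner membrane translocase genes, small Timm chaperones and the disulfide relay, and dashed lines mark a 1.5-fold change, which the interval of *Gfer* alone crosses.

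In 3 genes all Grsf1cKO mice lay above all WT mice (*Timm22*, *Timm29* and *Timm50*), and in 2 all lay below (*Timm21* and *Timm8b*). Over all named genes, 3.14% did not overlap in the upward and 6.12% in the downward direction. All 5 are inner membrane genes by the rule. The exact permutation test over 6 mice gives any gene without overlap its smallest possible 2-sided p of 0.1, so it adds nothing to the lack of overlap. Scaling each array to its 75th percentile, in place of quantile normalization, left 1 gene higher and 4 lower without overlap, where the shares of all genes were 3.73% and 4.48%. Fewer mice overlap less often, and the shares of all genes rose as well. Without Grsf1cKO 1 the counts were 6 higher and 6 lower (7.77% and 13% of all genes), and without Grsf1cKO 2 they were 5 and 4 (6.5% and 10.9%). The count of lower genes was 4 without WT 1 (10.8%) and 9 without WT 3 (13.2%).

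Among the receptors of the outer membrane, *Tomm20*, which binds presequences, had log2 signals of 14.51, 14.40 and 14.36 in Grsf1cKO mice 1, 2 and 3, against 14.64, 14.64 and 14.47 in WT 1, 2 and 3. Its log2 fold change was -0.16 (SE 0.0945), and WT 3 lay among the Grsf1cKO mice. *Tomm22*, which receives proteins from the receptors and holds the TOM complex together, had 14.78, 14.71 and 14.74 in Grsf1cKO mice against 14.81, 14.78 and 14.72 in WT. The log2 fold change of *Tomm22* was -0.03 (SE 0.0794), well inside the spread between mice. *Tomm70a*, the receptor of carrier proteins, had 12.37, 12.30 and 12.22 in Grsf1cKO mice against 12.40, 12.24 and 12.33 in WT, with a log2 fold change of -0.02 (SE 0.0907).

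The pore gene *Tomm40* had 13.45, 13.48 and 13.41 in Grsf1cKO mice against 13.42, 13.53 and 13.49 in WT, a log2 fold change of -0.03 (SE 0.0809). The 3 small subunits around the pore were close to 0, with log2 fold changes of -0.05 for *Tomm5*, 0.01 for *Tomm6* and -0.05 for *Tomm7*. *Tomm40l*, a paralog of the pore, gave the lowest log2 fold change of the 30 genes, -0.21 (SE 0.128, 95% interval -0.53 to 0.10). Its log2 signals were 11.36, 11.03 and 11.14 in Grsf1cKO mice against 11.56, 11.27 and 11.34 in WT, and Grsf1cKO 1 overlapped the WT mice. *Tomm34*, a cytosolic cochaperone in spite of its name, had a log2 fold change of 0.04. The dim noncoding *Tomm6os* had a log2 fold change of -0.02 with all arrays and -0.22 with first arrays only, since Grsf1cKO 1 gave 5.44 on its first array and 6.37 on the repeat.

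*Samm50*, the core of the SAM complex, had 13.90, 14.01 and 14.05 in Grsf1cKO mice against 13.84, 13.95 and 13.90 in WT. It was the highest of the outer membrane genes at a log2 fold change of 0.10 (SE 0.0865), and Grsf1cKO 1 lay among the WT mice. The metaxins, partners of Samm50, lay on both sides of 0, at 0.02 for *Mtx1*, -0.15 for *Mtx2* and -0.06 for *Mtx3*.

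**Figure D2:**
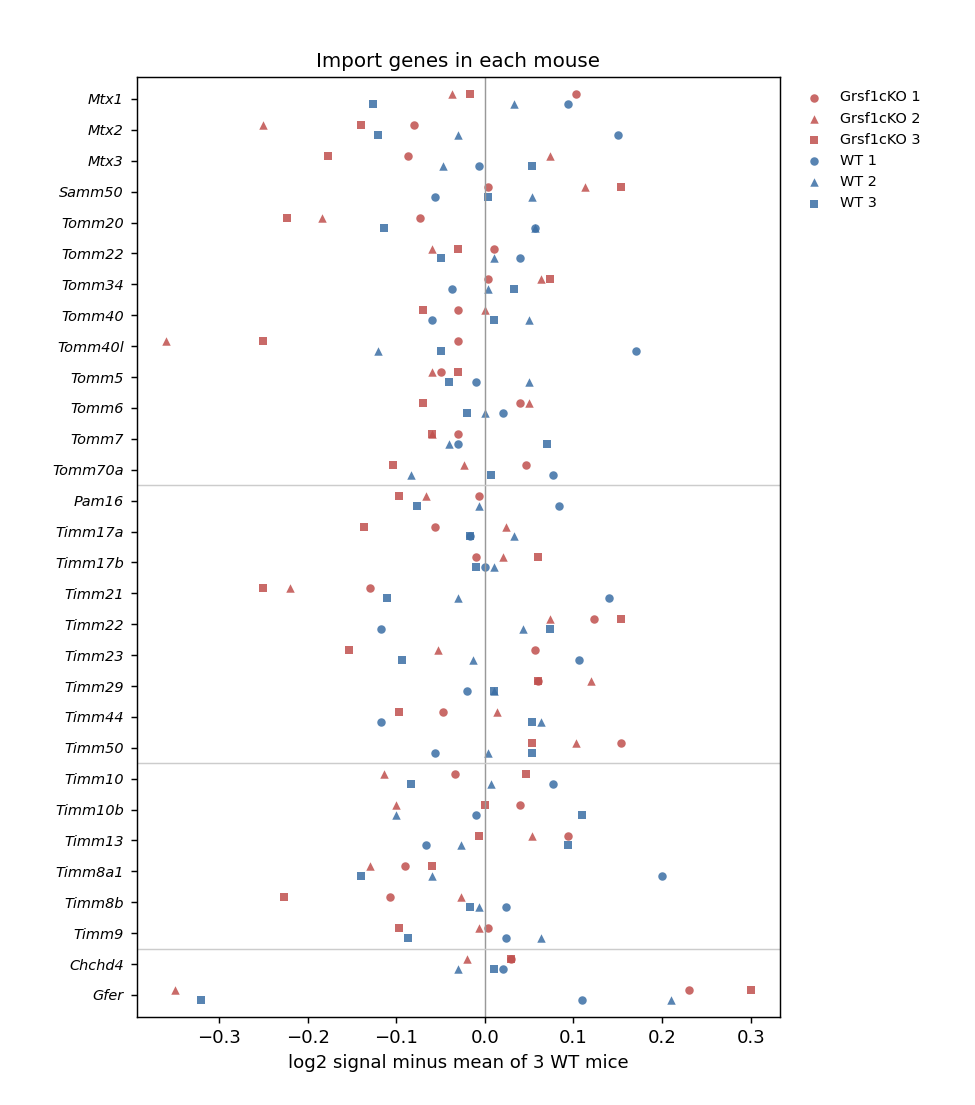
Log2 signal of each tested import gene in each mouse, minus the mean of the 3 WT mice, in the same order of genes and groups. Red symbols are Grsf1cKO and blue symbols WT mice, with a circle, triangle and square for mouse 1, 2 and 3; the genotypes overlap in 25 of 30 genes, and Grsf1cKO 2 and WT 3 are low for *Gfer*.

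In the inner membrane, *Timm23*, the channel of the presequence pathway, had log2 signals of 16.70, 16.59 and 16.49 in Grsf1cKO mice against 16.75, 16.63 and 16.55 in WT. *Timm17a*, its partner, had 15.93, 16.01 and 15.85 in Grsf1cKO mice against 15.97, 16.02 and 15.97 in WT. *Timm17b*, the other form of that partner, had 14.19, 14.22 and 14.26 in Grsf1cKO mice against 14.20, 14.21 and 14.19 in WT. These 3 core genes had log2 fold changes of -0.05, -0.06 and 0.02, and the genotypes overlapped in each. *Timm50*, the receptor of the complex, had 12.67, 12.62 and 12.57 in Grsf1cKO mice against 12.46, 12.52 and 12.57 in WT. The lowest Grsf1cKO and the highest WT mouse were the same at 2 decimals, and the log2 fold change was 0.10 (SE 0.0825).

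*Timm21*, which links the complex to the respiratory chain, had 12.17, 12.08 and 12.05 in Grsf1cKO mice against 12.44, 12.27 and 12.19 in WT. All Grsf1cKO mice lay below all WT mice, by a log2 fold change of -0.20 (SE 0.0996, 95% interval -0.44 to 0.04, limma adjusted p = 0.994), and the gap between the nearest mice of the genotypes was smaller than the range within WT. The import motor pulls the protein into the matrix. Of its parts, *Timm44*, the anchor of the motor, had 14.67, 14.73 and 14.62 in Grsf1cKO mice against 14.60, 14.78 and 14.77 in WT, and *Pam16* had 15.89, 15.83 and 15.80 against 15.98, 15.89 and 15.82. Their log2 fold changes were -0.04 and -0.06, and the genotypes overlapped in both.

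In the carrier pathway, *Timm22*, the insertase, had 13.29, 13.24 and 13.32 in Grsf1cKO mice against 13.05, 13.21 and 13.24 in WT. The WT mice spanned more than the Grsf1cKO mice, WT 1 was the lowest of the 6, and the log2 fold change was 0.12 (SE 0.0905, limma adjusted p = 0.994). *Timm29*, another subunit of this complex, had 10.31, 10.37 and 10.31 in Grsf1cKO mice against 10.23, 10.26 and 10.26 in WT. Its log2 fold change was 0.08 (SE 0.0769), and the small spread between mice, SD 0.04 in Grsf1cKO and 0.01 in WT, gave it the lowest adjusted p of the import genes by *z*-test (8.44e-05), at a change far under 1.5-fold.

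Of the 7 small Timm chaperones, 6 were tested, and 1 was above and 5 were below 0, with a median of -0.03. *Timm8b* had 16.48, 16.56 and 16.36 in Grsf1cKO mice against 16.61, 16.58 and 16.57 in WT. Its genotypes did not overlap, at a log2 fold change of -0.12 (SE 0.0884), though Grsf1cKO 2 lay just under the WT mice. *Timm10*, which forms a chaperone ring with *Timm9*, had 14.29, 14.21 and 14.37 in Grsf1cKO mice against 14.40, 14.33 and 14.24 in WT. *Timm10b*, which docks that ring on the Timm22 complex, had 14.23, 14.09 and 14.19 in Grsf1cKO mice against 14.18, 14.09 and 14.30 in WT. These 2 genes overlapped throughout, and the log2 fold changes of *Timm9*, *Timm13* and *Timm8a1* were -0.04, 0.05 and -0.09.

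The disulfide relay held a steady mRNA and the least steady of the 30. *Chchd4*, the oxidoreductase, had 12.60, 12.55 and 12.60 in Grsf1cKO mice against 12.59, 12.54 and 12.58 in WT, with a log2 fold change of 0.01 (SE 0.0768). *Gfer*, the oxidase that recharges Chchd4, had 12.53, 11.95 and 12.60 in Grsf1cKO mice against 12.41, 12.51 and 11.98 in WT. Grsf1cKO 2 and WT 3 were low and the other 4 mice were close together, so that the spread of *Gfer* within a genotype (SD 0.36 in Grsf1cKO and 0.28 in WT) was far above the next highest of the 30 genes in either genotype (0.17 and 0.18). A different *Gfer* probe was low in the same mice, at 11.57, 11.22 and 11.51 in Grsf1cKO mice against 11.57, 11.38 and 11.19 in WT. The mean over the cytosolic chaperones *Hsp90aa1*, *Hsp90ab1*, *Hspa8* and *Dnaja1*, relative to WT, was also lowest in its genotype in these mice, at 0.01, -0.09 and 0.08 in Grsf1cKO mice against 0.07, 0.08 and -0.15 in WT. This likeness was seen in the values and was not tested.

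Several probes of a gene gave a second reading for 13 genes, and in 5 of them the tested probes had opposite signs. From the brightest down to the dimmest, the log2 fold changes of the *Tomm20* probes were -0.16, -0.08 and 0.02, the widest difference between probes of a gene (0.18). Those of *Tomm40* were -0.03, 0.09 and 0.08, and those of *Tomm22* -0.03 and 0.05. The probes of *Timm10* gave -0.03 and 0.01, and those of *Timm10b* -0.02 and 0.06. The direction of these 5 genes is therefore not settled by the arrays. In the other 8 genes the probes had 1 sign, among them *Timm50* (0.10 and 0.14), *Mtx2* (-0.15 and -0.17) and *Tomm40l* (-0.21 and -0.09), although the genotypes of the dimmer *Timm50* probe overlapped. Another probe each of *Timm22* and *Mtx3* was not well above background in most mice and was not tested.

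**Figure D3:**
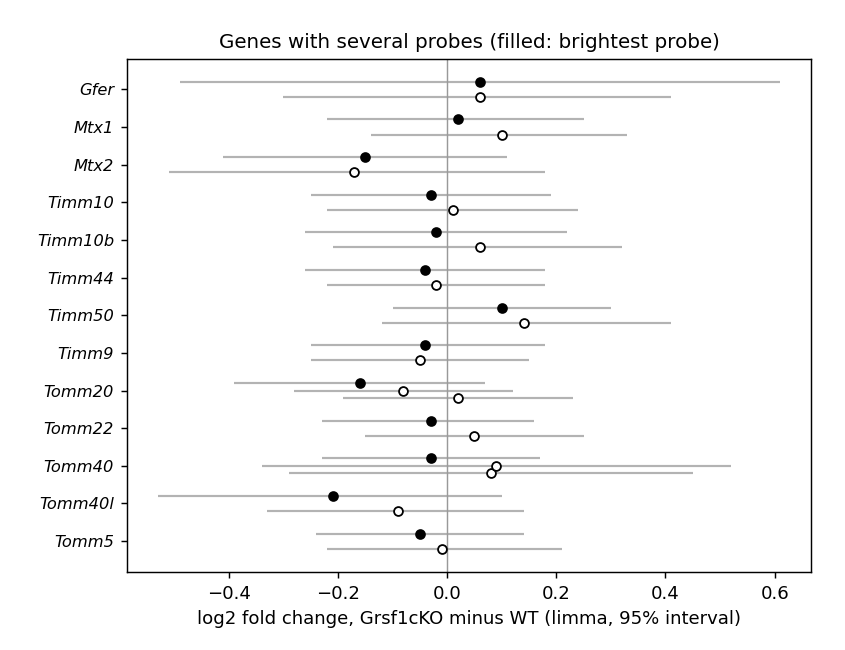
Log2 fold change, Grsf1cKO minus WT, with its limma 95% confidence interval, for each tested probe of the 13 import genes with several tested probes (n = 3 mice of each genotype). Filled points are the brightest probe of the gene and open points the others, and every interval crosses 0.

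Repeat arrays of the same mouse differed by a median of 0.03 on the log2 scale over the 30 genes, in Grsf1cKO 1 as in WT 1, while the median SD between mice was 0.06 in Grsf1cKO and 0.08 in WT. With first arrays only, the log2 fold change kept its sign in 29 of 30 genes and moved by at most 0.03, and the counts of genes without overlap were again 3 higher and 2 lower, where the shares of all genes were 3.74% and 5.55%. By limma, first arrays again gave 0 import probes called, 0 import genes with an unadjusted p under 0.05 and 29 intervals within 1.5-fold. Of all probes 3 were called, and of all genes 1.4% were higher and 2.01% lower at that p and 70.8% had an interval within 1.5-fold. All Grsf1cKO arrays were on slide 2, beside WT 3 and the repeat array of WT 1. Slide 1 held WT arrays only, that of WT 2 and the first of WT 1, so that slide and genotype are partly confounded. The median of the 30 genes was -0.04 with slide as a block and -0.03 on slide 2 alone, where *Grsf1* was at -2.22. Single genes moved in either direction, and with slide as a block *Tomm20* was at -0.09 (-0.16 without the block) and *Tomm40l* at -0.24 (-0.21 without it).

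The other genes of import, described from lists of known roles, also had small values. Of 42 genes in 7 lists, all tested, 0 had an unadjusted limma p under 0.05, beside 1.19% of all genes higher and 2.28% lower. At 2 decimals, 9 of the 42 were above and 32 below 0 and 1 (*Mtch1*) was at 0, with a median of -0.04. Of all 17030 genes, counted without rounding, 7248 were above and 9782 below 0, with a median of -0.02. The genotypes did not overlap in 3 genes, each lower in Grsf1cKO, beside 6.12% of all genes. *Hspa9*, the chaperone of the import motor, had 15.23, 15.24 and 15.21 in Grsf1cKO mice against 15.34, 15.40 and 15.36 in WT, a log2 fold change of -0.14 (SE 0.0763, limma adjusted p = 0.994). Its values lay close together within each genotype. The other 2 were *Oxa1l*, an insertase for proteins made in the matrix, at -0.09, and *Micos10*, a subunit of the cristae organizing complex, at -0.06. With first arrays only, these 2 overlapped, *Hspa9* did not, and *Ndufs5*, a substrate of the relay, did not overlap either.

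By list, the motor and translocase partners ran from -0.14 (*Hspa9*) to -0.02 (*Grpel1* and *Grpel2*, cofactors of that chaperone), and the peptidases that trim imported proteins from -0.04 (*Immp1l*) to 0.06 (*Mipep*). The membrane insertion and carrier partners ran from -0.11 (*Mtch2*) to 0.00 (*Mtch1*), and the cristae organizing complex and its partner from -0.11 (*Apoo*) to 0.09 (*Chchd6*). The relay partner and substrates ran from -0.10 (*Ndufs5*) to 0.16 (*Cox19*), the matrix folding genes from -0.11 (*Hspe1*) to -0.05 (*Trap1*), and the cytosolic chaperones from -0.04 (*Dnaja1*) to 0.05 (*Hsp90aa1*). None of these extremes passed the criteria in limma.

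As a reference for mitochondrial content, 8 mRNAs of oxidative phosphorylation and the citric acid cycle had a median of -0.02, with *Sdha* lowest at -0.20 and *Atp5a1* and *Cox4i1* highest at 0.04. *Ndufs1* and *Ndufa9*, of respiratory complex I, did not overlap between the genotypes, at -0.15 and -0.17, beside the same 6.12% of all genes, and *Ndufa9* overlapped with first arrays only. The mean over these 8 genes, relative to WT, was -0.01, -0.08 and -0.08 in Grsf1cKO mice 1, 2 and 3, against 0.07, -0.04 and -0.02 in WT 1, 2 and 3. For the 13 outer membrane import genes it was -0.01, -0.06 and -0.07 in Grsf1cKO mice against 0.03, 0.00 and -0.03 in WT. For the 15 inner membrane genes it was 0.00, -0.02 and -0.05 in Grsf1cKO mice against 0.02, 0.00 and -0.01 in WT. In whole muscle, fewer mitochondria-rich cells and less of an mRNA in each cell cannot be told apart.

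The tissue was muscle by its markers, since 8 of 8 muscle fiber genes were above background in 6 of 6 mice, with log2 fold changes from -0.05 (*Myh4*) to 0.19 (*Myh2*). The genotypes did not overlap in these 2 fast myosins, beside 6.12% of all genes downward and 3.14% upward. With first arrays only *Myh2* overlapped, and *Mb* (myoglobin) did not. *Myf5*, whose locus drives the Cre, was above background in 0 mice. The mean over 7 slow fiber genes, relative to WT, was 0.20, -0.22 and 1.12 in Grsf1cKO mice against -0.44, 0.21 and 0.23 in WT, so that Grsf1cKO 3 stood above the rest. The slow myosin *Myh7* did not share this, at 11.36, 9.47 and 9.40 in Grsf1cKO mice against 9.28, 11.39 and 11.33 in WT, and Grsf1cKO 3 was its lowest Grsf1cKO mouse. *Tnni1* was high in Grsf1cKO 3, at 11.19, 10.62 and 14.34 in Grsf1cKO mice against 10.35, 11.18 and 11.22 in WT. These genes were the extremes of the list, with log2 fold changes of -0.59 and 1.13, and *Myl2*, at 0.63, did not overlap and had an unadjusted limma p under 0.05, as did 3.14% and 1.19% of all genes in that direction. The mean over 5 macrophage genes, each above background in 6 of 6 mice, was -0.09, -0.05 and 1.07 in Grsf1cKO mice against -0.04, 0.17 and -0.13 in WT, again highest in Grsf1cKO 3. Their log2 fold changes ran from 0.09 (*Csf1r*) to 0.66 (*Cd68*).

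Import genes moved far less than these lists in this mouse. Grsf1cKO 3 was the lowest Grsf1cKO mouse for 14 of the 30 import genes and the highest for 8, and the median over the 30 genes was -0.01 without it. The part that fiber type, macrophages or fibroblasts had in the small import values was not tested. The medians of the other marker lists lay between -0.16, for 5 adipocyte genes, and 0.21, for 5 fibroblast genes. The adipocyte genes ran from -0.71 (*Cfd*) to 0.08 (*Adipoq*), the fibroblast genes from 0.02 (*Pdgfra*) to 0.36 (*Col3a1*), with their mean highest in Grsf1cKO 3 (0.41), and the red cell genes from -0.19 (*Hbb-b1*) to -0.02 (*Hba-a1*). Satellite cell genes were at 0.10 (*Pax7*) and 0.11 (*Cdh15*), and endothelial genes ran from -0.12 (*Kdr*) to 0.08 (*Pecam1*). Mural cell genes ran from -0.13 (*Myh11*) to 0.14 (*Acta2*).

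Import genes are known targets of factors that match nuclear gene output to mitochondrial need, and their promoters were searched for the letters of 6 motifs after the array values had been seen. RefSeq promoters of GRCm38.p6, from 250 bases before to 50 after the start of a gene, were at hand for 29 of the 32 protein-coding genes, and each motif was searched on both strands. The letters CCGGAAG, bound by ETS factors such as GABPA, were found in 12 of the 29 genes (41.4%), 6 of each membrane, against 9.9% of 27025 genes with a promoter and 12.9% of the 17492 that encode proteins. AAGATGGCG, for YY1, was found in 3 genes (10.3%, against 2.1% of protein-coding genes), and GGGCGG, the box of SP1, in 17 (58.6% against 49.2%). GCGCATGC, for NRF1, was in 1 gene (3.4% against 3.9%), TCAAGGTCA, for ERR factors, in 1 (3.4% against 0.4%), and TGACGTCA, the CRE, in 0 (against 2.5%). No test was made of these shares, and a match shows letters and not binding.

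The ETS letters were in more members than those of any other motif but SP1, and 4 of their matches are shown, a choice made after the counts. They are those of *Timm29* and *Timm8b*, whose genotypes did not overlap, of *Timm23*, the channel, and of *Mtx2* of the outer membrane. Each is 60 bases of the strand of the gene, with the match, on either strand, in capitals.
Timm29 (chr9:21592484-21592543, + strand, 212 bases before the start): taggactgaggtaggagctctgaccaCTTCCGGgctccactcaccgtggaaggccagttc
Timm8b (chr9:50603841-50603900, + strand, 12 bases before the start): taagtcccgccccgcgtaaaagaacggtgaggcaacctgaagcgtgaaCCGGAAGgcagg
Timm23 (chr14:32201905-32201964, - strand, 47 bases before the start): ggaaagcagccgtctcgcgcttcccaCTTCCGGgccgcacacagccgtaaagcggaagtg
Mtx2 (chr2:74825752-74825811, + strand, 25 bases before the start): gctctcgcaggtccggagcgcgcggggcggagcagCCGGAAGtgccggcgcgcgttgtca

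The values of genes with and without these letters overlapped. The 11 tested import genes with the ETS letters had a median log2 fold change of -0.03, from -0.15 to 0.08, and the 16 tested genes whose promoter lacked them had a median of -0.01, from -0.16 to 0.12. *Tomm40l* and *Timm21*, the 2 lowest of the 30 genes, and *Tomm7* had no promoter in the table and are in neither group. *Timm29* lay above and *Timm8b* below WT, so that members with the same letters are found on both sides.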

How the data were processed

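The authors deposited Feature Extraction (version 12.0.3.1) output, in which the intensity of each of 62976 spots is linear and background-corrected, and a table holding a score of each spot, the *z*-score of its log2 signal. Of the non-control spots, 0 were saturated. Here control spots were dropped, outlier flags removed single values, and quantile normalization of the 8 arrays on the linear scale was followed by log2 and averaging over spots, then over arrays of a mouse. Tested probes also had a value in 2 or more mice per genotype. The fit, by limma (version 3.58.1; R 4.3.3), had genotype alone as a factor, and p-values were adjusted by Benjamini-Hochberg over all 38888 probes. The number of mice limits the precision. Accessions were named through RefSeq GRCm38.p6.

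Values of every mouse are given for *Grsf1*, core subunits, genes without overlap or with an unadjusted p under 0.05, the 2 largest rises and falls, and genes with probes of opposite sign; in other lists, for extremes and genes without overlap, the change is given, and the genes of 1 marker list are not reported here. The members and lists were chosen with earlier results of these data known. The motif search, its protein-coding reference and the ETS windows (NRF1 windows were first planned) were chosen after seeing the values. Normalization on the log2 scale was run first and made an alternative after its results were seen. Tests were tried on simulated data, and figures were drawn with matplotlib 3.10.9.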

Additional observations from a re-analysis of the deposited data

How the results depend on the processing

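In 21 alternatives of normalization, background correction, filter, repeat arrays, slide, test, probe and mice, 0 import probes passed all criteria in every one that gave a count. Quantile normalization on the log2 scale was added after seeing the data and left the import counts and medians and the count of all probes called the same. Medians of *z*-scores and counts for means of probes were not computed. Of 600 log2 fold changes of the 30 genes, 24 changed sign, all in 10 genes within 0.1 of 0, most often *Tomm6* (6), and 10 values of 6 genes moved by over 1 SD. The 600 values ran from -0.3 (*Tomm40l* without Grsf1cKO 1) to 0.27 (*Gfer* without Grsf1cKO 2). Without WT 1, *Tomm40l* was at -0.13 and *Timm22* at 0.06. The 5 genes without overlap kept their signs. Limma gave no import gene an unadjusted p under 0.05, the lowest being 0.0531.

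With the 75th percentile, 1 gene was higher and 4 were lower without overlap (all genes 3.73% and 4.48%). By *z*-test, 322 of all probes were called, and 6 import genes were higher and 1 lower at an unadjusted p under 0.05 (all genes 4.54% and 5.49%). The *Grsf1* log2 fold change was -2.22 on slide 2 alone (limma adjusted p = 0.0508; fewer samples). Same-numbered mice had correlations of 0.23, 0.10 and 0.09, while other pairs of a Grsf1cKO and a WT mouse had -0.19 to 0.09. Whether the numbers pair the mice was not tested. With the replicate block *Grsf1* was at -2.19 (limma adjusted p = 0.203) and 1 of all probes was called. Leaving out 1 mouse gave -2.23 to -2.16 for *Grsf1*, 3 to 6 genes higher and 2 to 9 lower without overlap (all genes 6.05% to 8.45% and 10.7% to 13.9%), and an inner membrane median of -0.07 to 0.00. The cause of these shifts was not tested. Signal over background limits *Tomm20l* and *Timm8a2*.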
